A study of Mus musculus with 18 samples.

Results

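Gene expression was compared between whole dorsal root ganglia (DRG) of mice that lack the sodium channel Nav1.9 and DRG of their littermates. The arrays were chosen by the genotype and title that GEO gives, which makes 3 Nav1.9 KO arrays and 3 littermate arrays, 6 of the 18 arrays of the series. The other 12 arrays hold Nav1.7 KO, Nav1.8 KO and their own littermates, 3 of each. Per the paper, Nav1.8 and Nav1.9 were removed throughout the body, while Nav1.7 was deleted from sensory neurons by Advillin-Cre. The littermates of all lines carry the genotype label Wild Type. The paper describes its mice as adults of both sexes, without giving age or sex by group. Allele, strain, batch and the number of animals per array are not given in the sources used here, so p-values measure only the spread between these samples, which may be technical.

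Nav1.9, the product of *Scn11a*, is a voltage-gated sodium channel of small-diameter sensory neurons. It opens near the resting potential and carries a persistent current that sets how readily a nociceptor fires. Sensory neurons also hold a programme in reserve. After their axon is cut they switch on transcription factors such as ATF3 and c-Jun, regrowth proteins such as SPRR1A, and neuropeptides that are scarce in an intact ganglion. Both groups of genes are read by the arrays used here.

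RNA was hybridised to Affymetrix GeneChip mouse genome arrays, and the values are log2 intensities of probe sets. Of the probe sets, 34945 were named for 1 gene, and the brightest of each gene stood for it, which gave 18193 genes. The medians of the 18 arrays lay between 6.33 and 6.35. Correlations across probe sets were 0.997 to 0.998 among Nav1.9 KO arrays, 0.997 to 0.998 among their littermates and 0.996 to 0.998 between KO and littermate arrays. All 6 arrays were of 1 sex by expression, with *Xist* at 5.24 to 5.48 and the Y-linked *Eif2s3y* at 9.20 to 9.37. *Xist* lay above *Eif2s3y* in 2 of 3 Nav1.7 KO arrays and 3 of 3 of their littermates, and in 2 of 3 Nav1.8 KO arrays and 0 of 3 of their littermates. General sensory neuron markers averaged 12.51 to 12.57 in Nav1.9 KO arrays and 12.55 to 12.59 in littermate arrays. Markers of the central nervous system averaged 5.36 to 5.42 in KO and 5.41 to 5.44 in littermates. KO and littermate ranges overlapped for both marker sets. Levels of different probe sets cannot be compared with each other, so these values do not test the tissue label. The difference between 3' and 5' probe sets of *Gapdh*, a measure of RNA integrity, was 0.0563 to 0.243 in Nav1.9 KO, 0.0779 to 0.101 in littermates and 0.131 to 1.15 in the 12 other arrays.

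The targeted gene was low in the KO. *Scn11a* (probe set 1420784_at) read 10.90, 10.98 and 11.13 in the Nav1.9 KO arrays, against 12.61, 13.27 and 12.69 in the littermates. The groups did not overlap, and *Scn11a* was 3.62-fold lower in KO (log2 fold change -1.85, 95% interval -2.11 to -1.60, adjusted p = 7.13e-07 from limma). The gene has 1 probe set, and whether it lies in the deleted part is not given in the sources used here. The partner channels of the same nociceptors moved little. *Scn10a*, which encodes Nav1.8, read 9.48, 9.46 and 9.66 in Nav1.9 KO and 9.49, 9.48 and 9.60 in littermates (log2 fold change 0.01, 95% interval -0.27 to 0.30, adjusted p = 0.983). *Scn9a*, which encodes Nav1.7, read 12.29, 12.21 and 12.26 in Nav1.9 KO and 12.37, 12.50 and 12.32 in littermates (log2 fold change -0.14, 95% interval -0.26 to -0.02, adjusted p = 0.322). Among 15 measured sodium channel genes and partners, *Scn11a* alone passed the test.

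Across all genes, 29 rose and 57 fell in Nav1.9 KO at an adjusted p under 0.05 (limma, Benjamini-Hochberg over 18193 genes). This is 0.473% of the genes tested, with 0.159% higher and 0.313% lower, and the log2 fold change of all genes had a median of 0.00. The KO and littermate arrays did not overlap for any of the 86 genes, but the same held for 18% of all genes, so a lack of overlap on its own says little with 3 arrays against 3. The changes were mostly small. The median fold was 1.35 and the smallest 1.13, with 26 genes past 1.5-fold and 11 past 2-fold, of which 3 were higher and 8 lower. With an unadjusted p under 0.01 and a fold over 1.5, 40 genes (0.22%) passed. Of the 86 genes, 19 kept their call whichever single array was left out and 67 lost it at least once, so the arrays on which calls rest are given with each group of genes. When every probe set was tested for itself, 99 (0.283%) passed. Of 106 further probe sets that the changed genes had, 80 moved in the direction of the brightest one and 5 passed in that direction.

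The leading group was that of nerve injury and regeneration genes. Of 26 measured members, 11 fell, 15 did not pass and 0 rose (0 also at an unadjusted p under 0.05). By an analysis of variance on the 6 arrays, 0 of them fell after adjustment, and 0 of all genes passed. The median log2 fold change of the 26 members was -0.44, and 24 of 26 lay below 0. In limma 19 were lower at an unadjusted p under 0.05, where 6.15% of all genes were. The promoters of the 3 best known of them are printed first, because c-Jun and ATF3 can bind AP-1 sites and so motifs of that kind were looked for. These are reference sequences (RefSeq, GRCm38.p6), 250 bases before to 50 after the start of the gene, 5' to 3' on the strand of the gene. Capitals mark AP-1 motifs (TGACTCA or TGAGTCA, which are the same site read on both strands) and the TATA motif (TATAAA, searched on both strands). *Sprr1a* lies at chr3:92485832-92486131 on the minus strand, *Atf3* at chr1:191183284-191183583 on the minus strand and *Npy* at chr6:49822460-49822759 on the plus strand.
Sprr1a: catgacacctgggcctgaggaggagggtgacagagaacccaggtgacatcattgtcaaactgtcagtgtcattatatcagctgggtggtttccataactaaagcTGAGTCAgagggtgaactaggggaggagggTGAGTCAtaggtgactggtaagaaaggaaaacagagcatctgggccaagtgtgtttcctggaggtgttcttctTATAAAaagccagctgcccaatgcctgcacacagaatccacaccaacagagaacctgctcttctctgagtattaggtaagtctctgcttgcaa
Atf3: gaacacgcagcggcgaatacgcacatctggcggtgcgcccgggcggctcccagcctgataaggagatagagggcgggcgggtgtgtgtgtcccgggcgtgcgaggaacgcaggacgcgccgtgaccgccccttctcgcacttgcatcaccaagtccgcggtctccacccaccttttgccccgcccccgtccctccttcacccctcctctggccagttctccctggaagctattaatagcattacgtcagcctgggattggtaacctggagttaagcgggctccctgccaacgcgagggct
Npy: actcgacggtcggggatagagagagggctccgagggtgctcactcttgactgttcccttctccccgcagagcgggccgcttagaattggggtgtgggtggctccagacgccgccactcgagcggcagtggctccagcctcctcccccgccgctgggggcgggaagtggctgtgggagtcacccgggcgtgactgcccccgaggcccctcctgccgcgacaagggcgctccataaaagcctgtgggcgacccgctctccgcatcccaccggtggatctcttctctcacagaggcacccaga
The *Sprr1a* promoter held TGAGTCA at 146 and 116 bases before the start and TATAAA at 43 bases before it. The *Atf3* and *Npy* promoters held none of these motifs in this window, nor the cyclic AMP response element TGACGTCA (both strands). Of the 11 genes, 9 had an entry, with 15 promoters, and 1 promoter (6.67%) held an AP-1 motif. Over all 32851 promoters of that table the share was 5.2%, with 13.6% for TATAAA and 1.79% for the cyclic AMP element. All genes that fell had 55 promoters for 39 of 57 genes, with AP-1 in 5 (9.09%), the cyclic AMP element in 2 (3.64%) and TATAAA in 3 (5.45%). Genes that rose had 26 promoters for 23 of 29 genes, with AP-1 in 1 (3.85%), the cyclic AMP element in 2 (7.69%) and TATAAA in 2 (7.69%). A match is a description of the letters, not a bound site.

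The regrowth gene *Sprr1a*, a small proline-rich protein that promotes axon outgrowth, read 6.08, 5.69 and 5.51 in Nav1.9 KO and 10.40, 7.77 and 8.70 in littermates. The littermates were widely spread, and all 3 lay far above the KO arrays. It was 9.19-fold lower in KO (log2 fold change -3.20, standard error 0.452, adjusted p = 0.00554). *Atf3*, the stress-induced transcription factor used as a marker of cut axons, read 7.89, 7.59 and 7.74 in Nav1.9 KO and 10.35, 8.97 and 9.41 in littermates, 3.57-fold lower (adjusted p = 0.00711). Littermate replicate 1 was the highest array for both genes. The partner of ATF3, *Jun*, read 10.08, 10.02 and 10.15 in Nav1.9 KO against 10.53, 10.52 and 10.49 in littermates, where the 3 arrays lay close together. It was 1.34-fold lower (adjusted p = 0.0121). *Sox11*, a transcription factor of axon regrowth, read 7.86, 8.10 and 7.88 in Nav1.9 KO and 9.53, 8.51 and 8.65 in littermates. On this brightest probe set it did not pass (log2 fold change -0.94, adjusted p = 0.0594). Another probe set of *Sox11* passed when probe sets were tested (log2 fold change -0.92, adjusted p over probe sets 0.0297 in limma). Its further probe sets lay at -0.59, -0.74, -0.72 and -0.88 (adjusted p over probe sets 0.0796 or more).

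Peptides and receptors that appear in cut neurons were lower as well. *Npy*, neuropeptide Y, read 6.24, 5.77 and 5.64 in Nav1.9 KO and 8.08, 6.84 and 7.16 in littermates, 2.79-fold lower (adjusted p = 0.0121). *Gpr151*, an orphan receptor of injured neurons, read 5.19, 5.43 and 5.24 in Nav1.9 KO and 7.93, 6.30 and 6.45 in littermates, 3.04-fold lower (adjusted p = 0.0222). *Cckbr*, the cholecystokinin B receptor, read 6.01, 5.58 and 5.75 in Nav1.9 KO and 7.39, 6.57 and 6.58 in littermates, 2.10-fold lower (adjusted p = 0.0326). The other probe set of *Cckbr* was at a log2 fold change of -0.12 (adjusted p over probe sets 0.751 in limma). In all 3 genes littermate replicate 1 again stood above the other two. The neurotrophin gene *Bdnf* did not follow that order, with 9.76, 9.73 and 9.48 in Nav1.9 KO and 10.45, 10.10 and 10.66 in littermates (1.68-fold lower, adjusted p = 0.0188). The remaining genes that fell were *Socs3*, an inhibitor of cytokine signalling (1.65-fold, adjusted p = 0.0136), *Flrt3*, an adhesion protein of growing neurites (1.5-fold, adjusted p = 0.00972), the chemokine *Ccl2* (1.32-fold, adjusted p = 0.0414) and *Cacna2d1*, the calcium channel subunit that binds gabapentin (1.21-fold, adjusted p = 0.0358). Other probe sets of *Cacna2d1* lay at -0.61, 0.20, 0.09 and 0.05 on the log2 scale (adjusted p over probe sets 0.064 or more).

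Members that did not pass included some with large differences. *Crh*, corticotropin-releasing hormone, read 3.84, 4.07 and 3.62 in Nav1.9 KO and 7.78, 4.89 and 5.87 in littermates (log2 fold change -2.34, adjusted p = 0.107). *Nts*, neurotensin, read 9.59, 9.56 and 9.58 in Nav1.9 KO and 11.32, 10.73 and 10.79 in littermates (log2 fold change -1.37, adjusted p = 0.192). These 2 genes, *Ecel1* (log2 fold change -0.82, adjusted p = 0.0693) and *Gadd45a* (-0.44, adjusted p = 0.0566) were singled out after their values were seen. Other members lay nearer 0. *Gal* had a log2 fold change of -0.33 (adjusted p = 0.46), the growth cone gene *Gap43* -0.18 (adjusted p = 0.249), *Vip* -0.03, *Reg3b* 0.07 and *Stat3* 0.01.

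**Figure D1:**
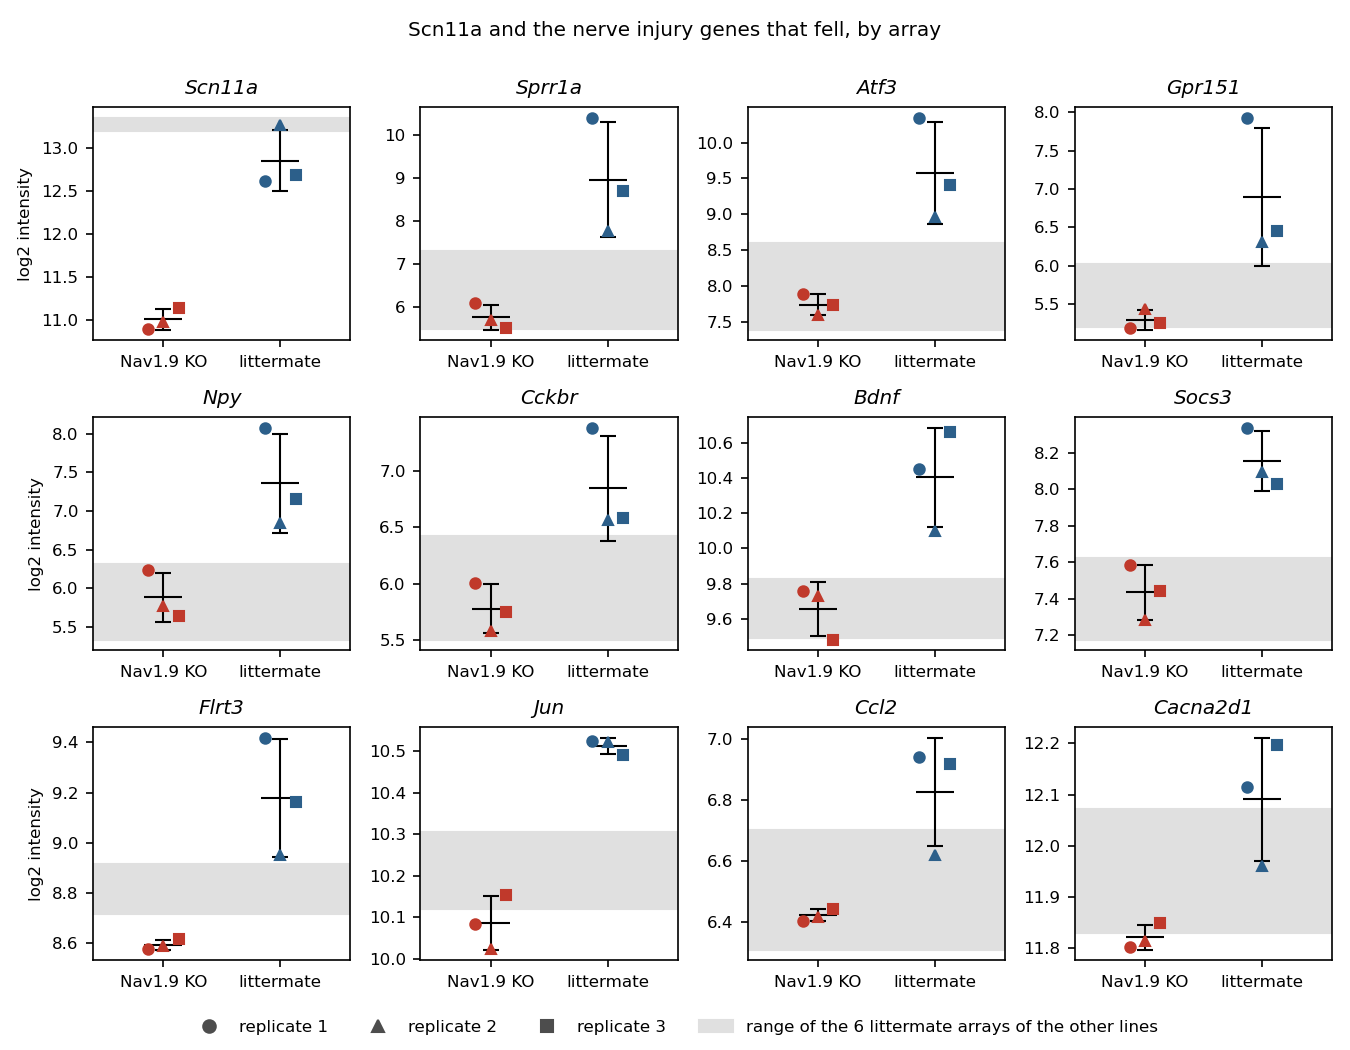
Log2 intensity of *Scn11a* and of the 11 nerve injury genes that fell, in the 3 Nav1.9 KO arrays (red, left) and the 3 littermate arrays (blue, right) of each panel; marker shape gives the replicate number, the long bar the mean and the whiskers 1 SD, and the grey band the range of the 6 littermate arrays of the other lines. No KO array reaches a littermate array in any panel, and for *Sprr1a*, at 5.51 to 6.08 in KO and 7.77 to 10.40 in littermates, it is the littermates that lie outside the band of 5.49 to 7.29.

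The calls of *Sprr1a*, *Atf3*, *Npy* and *Flrt3* held without any single array, with the spread still shared with the arrays of the other lines. In limma with the Nav1.9 arrays alone, none of these genes passed (adjusted p = 0.179, 0.156, 0.226 and 0.189 in that order). The call of *Gpr151* was lost without each KO array in turn (adjusted p = 0.0546 to 0.0876), those of *Ccl2* and *Cacna2d1* without any array but littermate 2 (0.0828 to 0.173), that of *Cckbr* without any but littermate 2 (0.0518 to 0.118), that of *Bdnf* without KO 3, littermate 1 or littermate 3 (0.0779 to 0.0953), and those of *Socs3* and *Jun* without KO 2 (0.059 and 0.0539) or littermate 1 (0.0646 and 0.0527). The log2 fold change of *Sprr1a* was -2.48 without littermate 1 and -3.79 without littermate 2. Between 5 and 15 injury genes passed when 1 array was left out.

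The injury genes were also set beside the content of other tissue. The mean level over the 26 genes was 8.10 to 8.19 in the Nav1.9 KO arrays, and 9.26, 8.59 and 8.81 in littermates 1, 2 and 3. Markers of skeletal muscle and fat averaged 7.47, 8.08 and 7.73 in the KO arrays and 6.45, 9.54 and 8.31 in the littermates. For example, the fast myosin *Myh4* read 6.93, 7.83 and 7.12 in Nav1.9 KO and 4.89, 9.96 and 8.25 in littermates. Littermate 1, the highest in injury genes, was thus the lowest in muscle genes, and littermate 2 the reverse. Of the 8 measured muscle and fat markers 0 passed in limma (0 at an unadjusted p under 0.05), and their median log2 fold change was -0.52. Macrophage markers averaged 7.94 to 8.20 in KO and 8.06 to 8.27 in littermates, and satellite glia markers 10.76 to 10.84 in KO and 10.84 to 10.88 in littermates. The part of these cells in the result was not tested, and in bulk RNA fewer cells of a type and less RNA per cell cannot be told apart.

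Outside the injury list, changed genes were few in each neuronal group, where 0.313% of all genes fell. With lists this short, single calls make up a share above that figure, so little can be read from them. Of 25 neuropeptides and dense-core granule genes, 2 fell and 0 rose. Besides *Npy* this was *Vgf*, a granule protein that neurotrophins and activity induce, at 10.22, 10.26 and 10.28 in Nav1.9 KO and 11.28, 10.93 and 11.38 in littermates (1.93-fold lower, adjusted p = 0.00311). Of 49 G-protein-coupled receptors 3 fell, *Gpr151*, *Cckbr* and *Npy1r*. *Npy1r*, a receptor for neuropeptide Y, read 7.39, 6.99 and 6.94 in Nav1.9 KO and 7.70, 7.64 and 7.87 in littermates (1.55-fold lower, adjusted p = 0.0233). Its other probe set was at a log2 fold change of -0.03 (adjusted p over probe sets 0.953 in limma). The immediate early genes, which follow firing, had 1 call of 22. *Egr3* read 7.76, 7.76 and 8.23 in Nav1.9 KO and 9.10, 8.97 and 8.47 in littermates (1.9-fold lower, adjusted p = 0.0278), while the median of that list was 0.01. The other probe set of *Egr3* was at 0.09 (adjusted p over probe sets 0.732). *Ret*, the GDNF receptor kinase of non-peptidergic nociceptors, was 1.16-fold lower (12.70, 12.79 and 12.79 in Nav1.9 KO, 12.91, 13.00 and 13.02 in littermates, adjusted p = 0.0281), the only call among 16 non-peptidergic markers.

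Higher calls stood in 4 lists, of transmitter receptors, Wnt and BMP genes, histones and interferon response genes (*Xaf1* alone, 1 of 17), against 0.159% of all genes that rose. The 2 probe sets of *Xaf1* went opposite ways, as described with chromosome 11. Of 44 glutamate, GABA, glycine and nicotinic receptors 2 rose, both AMPA receptor subunits. *Gria2* read 9.07, 8.96 and 9.03 in Nav1.9 KO and 8.59, 8.71 and 8.69 in littermates (1.28-fold higher, adjusted p = 0.0121), with other probe sets at log2 fold changes of 0.16 and -0.04. *Gria1* read 7.10, 6.87 and 7.06 in Nav1.9 KO and 6.52, 6.44 and 6.23 in littermates (1.53-fold higher, adjusted p = 0.0498). Of 31 Wnt and BMP genes 2 rose, the Wnt antagonist *Sfrp1* (9.0, 8.59 and 9.02 in Nav1.9 KO, 8.51, 8.33 and 8.13 in littermates, 1.46-fold, adjusted p = 0.0222) and the ligand *Wnt5a* (8.86, 9.05 and 9.02 in Nav1.9 KO, 8.54, 8.65 and 8.36 in littermates, 1.38-fold, adjusted p = 0.048). The other probe sets of *Sfrp1* disagreed in direction, at 0.42, 0.05, -0.20 and -0.57 (adjusted p over probe sets 0.188 or more). Of 9 histone genes 2 rose and 1 fell. The variant histone gene *Macroh2a1* read 10.86, 10.87 and 10.81 in Nav1.9 KO and 10.67, 10.65 and 10.52 in littermates (1.17-fold higher, adjusted p = 0.0358), and *H2bc18* and *H2bc21* are described with chromosome 3. *Lrat*, which esterifies retinol for storage, was 2.04-fold lower (4.03, 4.86 and 4.74 in Nav1.9 KO, 5.60, 5.58 and 5.54 in littermates, adjusted p = 0.0121), 1 of 11 retinoid genes, and its other probe set was at 0.13 (adjusted p = 0.747). Genes in no list included *Pappa*, a protease that frees insulin-like growth factor (1.96-fold lower, adjusted p = 0.0356), *Pkib*, an inhibitor of protein kinase A (8.40, 8.43 and 8.45 in Nav1.9 KO, 9.17, 8.95 and 9.08 in littermates, 1.56-fold lower, adjusted p = 0.00554), and *Ifi44l*, an interferon-induced gene (5.03, 6.38 and 5.69 in Nav1.9 KO, 4.43, 4.94 and 4.25 in littermates, 2.24-fold higher, adjusted p = 0.0409). The other probe sets of *Pappa* were at log2 fold changes of -0.15 and -0.17 (adjusted p over probe sets 0.777 and 0.42 in limma).

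Here too the calls rested on few arrays. *Vgf*, *Lrat* and *Pkib* passed without any single array. The call of *Gria1* was lost without each array in turn (adjusted p = 0.0656 to 0.19), that of *Gria2* without KO 1 or littermate 1 (0.0575 and 0.062), that of *Wnt5a* without any but littermate 2 (0.0689 to 0.19), that of *Sfrp1* without KO 1, KO 3 or littermate 3 (0.098 to 0.109), and that of *Macroh2a1* without any but littermate 2 (0.0528 to 0.145). *Npy1r* lost its call without KO 2, KO 3, littermate 1 or littermate 3 (0.0699 to 0.119), *Egr3* without any but KO 3 and littermate 3 (0.071 to 0.131), *Ret* without any but littermate 1 (0.0539 to 0.119), *Pappa* without any but KO 2 and littermate 2 (0.118 to 0.123) and *Ifi44l* without any but KO 1 and littermate 2 (0.0847 to 0.171).

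Of the 38 lists of pathways and cell types, 13 held a changed gene and 25 held none. At an unadjusted p under 0.05 in limma, 1078 of all 18193 genes were higher and 1118 (6.15%) lower. The 12 pathway lists without a call had 290 entries, of which 25 were higher and 17 lower at an unadjusted p under 0.05, and list medians of -0.06 to 0.07. They included 47 potassium and HCN channels (median 0.02), 25 TRP, acid-sensing, purinergic and Piezo channels (0.00) and 21 transcription factors of sensory neuron subsets (0.07). The 13 cell type lists without a call had 141 entries, of which 10 were higher and 15 lower at an unadjusted p under 0.05. Peptidergic nociceptor markers had a median of -0.10, with *Calcb*, the beta form of calcitonin gene-related peptide, at -0.14 (adjusted p = 0.106). Markers of myelinated mechanoreceptors and proprioceptors had a median of 0.11, with *Ntrk3* at 0.19 (adjusted p = 0.175). The 5 measured markers of C-fibre low-threshold mechanoreceptors had a median of -0.11, led by *Tafa4* at -0.48 (adjusted p = 0.0546). In the list of lymphocytes, neutrophils and mast cells, the neutrophil granule gene *Ngp* varied within both groups, with 10.49, 8.09 and 9.35 in Nav1.9 KO and 10.62, 9.73 and 11.01 in littermates (log2 fold change -1.15, adjusted p = 0.378).

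**Figure D2:**
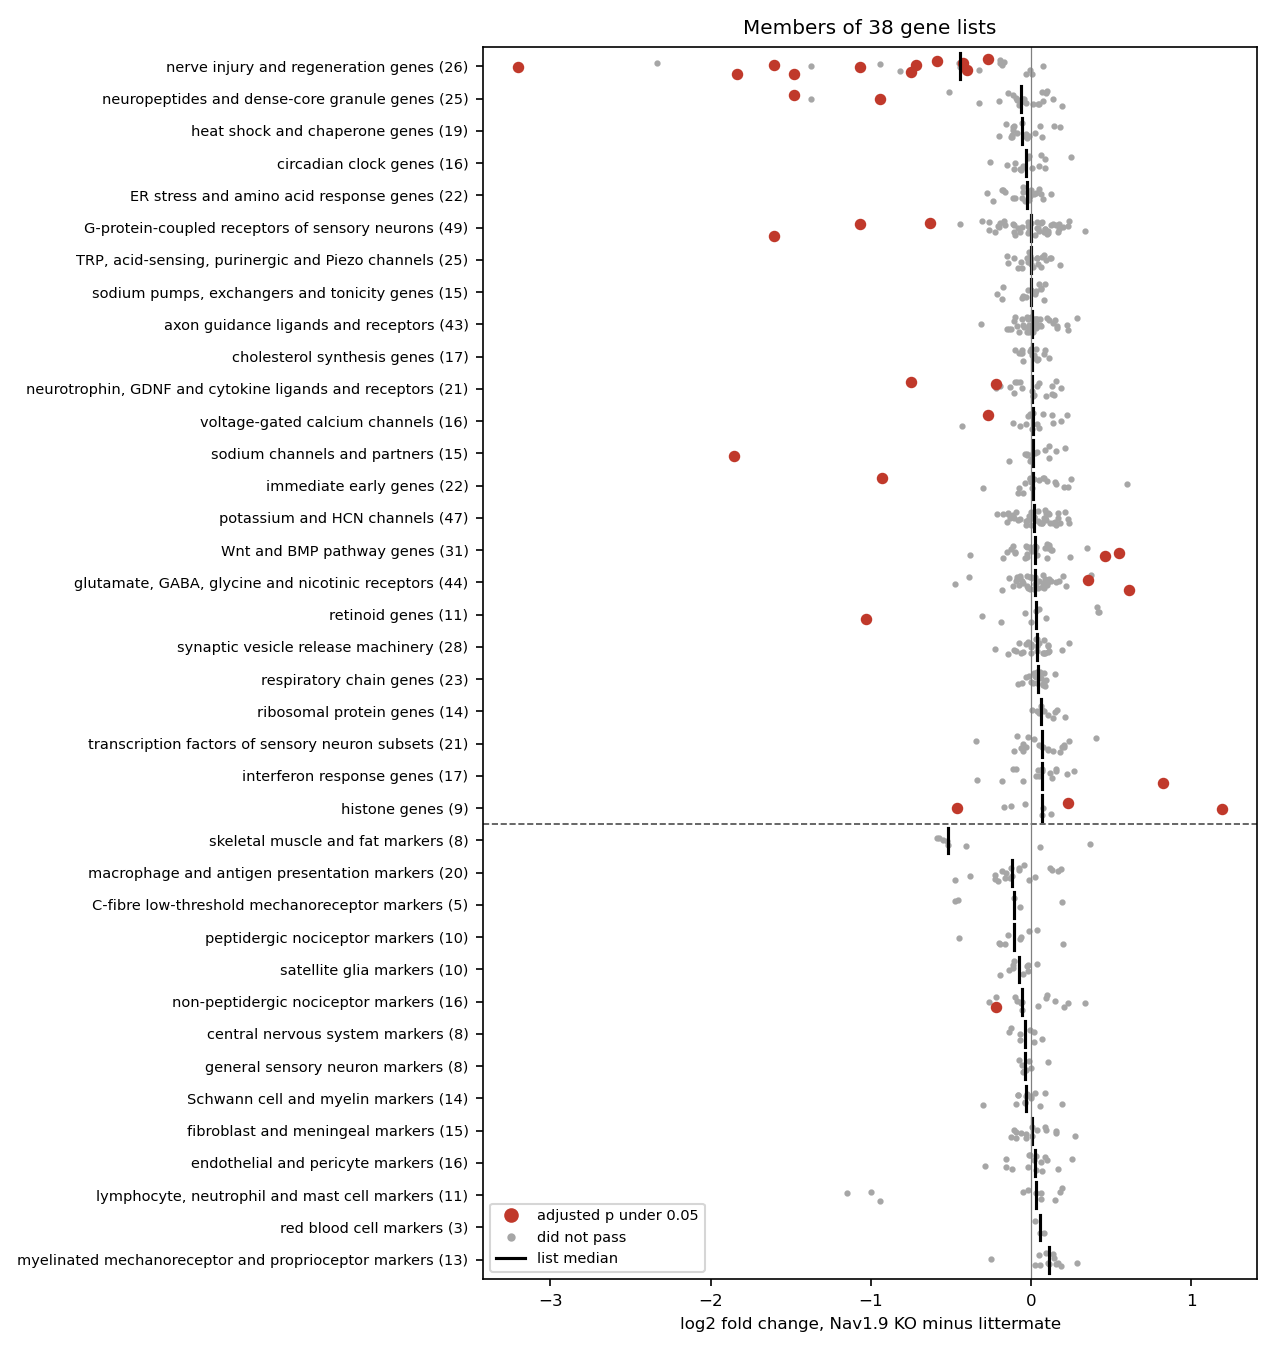
Log2 fold change (Nav1.9 KO minus littermate) of each measured member of 38 gene lists, pathways above the dashed line and cell types below it, with the number measured in brackets; large red points passed at an adjusted p under 0.05, small grey points did not, and black bars are list medians. The nerve injury list has 11 red points and a median of -0.44, and 25 lists have no red point.

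Genes that the study named for the arrays were looked up in this line. *Penk*, the precursor of the enkephalins, read 9.43, 9.41 and 9.01 in Nav1.9 KO and 9.14, 9.10 and 9.20 in littermates, with overlapping groups (log2 fold change 0.14, 95% interval -0.48 to 0.76, adjusted p = 0.901). *Ceacam10* was at 0.24 (95% interval -0.01 to 0.48, adjusted p = 0.428), *Runx1*, a transcription factor of nociceptors, at 0.24 (-0.04 to 0.52, adjusted p = 0.504) and *Hoxb5* at -0.08 (-0.26 to 0.11, adjusted p = 0.79). *Ptger1* (0.17, adjusted p = 0.508), *Mbp* (-0.03, adjusted p = 0.856), *Msi2* (0.16, adjusted p = 0.359), *Smr2* (-0.45, adjusted p = 0.21) and *Lrrc31* (-0.18, adjusted p = 0.598) did not pass either. These are values of the brightest probe set, and the direction of *Ptger1* turned with the mean of all its probe sets, as given below. The paper lists *Ptger1* as lower and *Mbp* and *Msi2* as higher in Nav1.9 KO, as fold changes without p-values. It also lists *Sox11*, *Jun*, *Lrat* and *Npy1r* as lower there, and their values here are given above. Of the other probe sets, 1 of *Msi2* read 6.89, 8.05 and 7.72 in Nav1.9 KO and 7.01, 6.52 and 6.26 in littermates (log2 fold change 0.96, unadjusted p = 0.000897, adjusted p over probe sets 0.104), another was at 0.44 (adjusted p = 0.29) and another at -0.22 (adjusted p = 0.252). For *Mbp*, 1 read 8.81, 8.80 and 8.65 in Nav1.9 KO and 8.22, 8.29 and 8.09 in littermates (log2 fold change 0.55, unadjusted p = 0.0076, adjusted p over probe sets 0.25), without overlap. *Pou4f2*, which the study calls *Brn3B*, has no probe set listed under its name in the annotation used and was not analysed here.

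The changed genes were unevenly placed in the genome. Chromosome 3 held 19 of its 913 tested genes (2.08%), chromosome 18 held 8 of 459 (1.74%) and chromosome 11 held 12 of 1443 (0.832%). Together these were 39 changed genes of 2815 (1.39%), against 47 of 15217 (0.309%) on the other chromosomes. Names and order of genes were taken from GRCm38.p6, and no test was made of the placement.

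**Figure D3:**
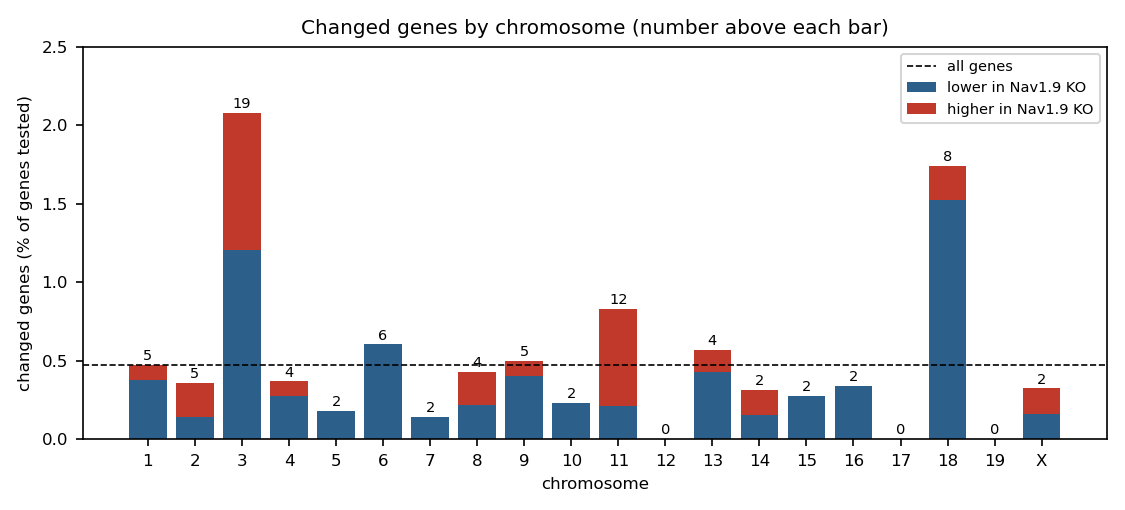
Share of tested genes (%) on each chromosome that passed at an adjusted p under 0.05 in Nav1.9 KO against littermates, split into genes higher (red) and lower (blue) in KO, with the number of changed genes above each bar and the share over all genes (0.473%) as a dashed line. Chromosomes 3, 18 and 11 stand highest, at 2.08%, 1.74% and 0.832%.

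On these 3 chromosomes the genes lay in stretches, which were marked out after their values were seen and are given as a description. On chromosome 3, the 16.5 Mb that run from *Tmem144* to *H2bc18* held 14 changed genes of 265 (5.28%), 6 higher and 8 lower. On chromosome 11, the 19.2 Mb that run from *Gria1* to *Glod4* held 9 of 324 (2.78%), all 9 higher by the brightest probe set. One of these genes, *Xaf1*, was lower on its other probe set (log2 fold change -0.88). On chromosome 18, the 28.9 Mb that run from *Cep120* to *Zfp236* held 7 of 161 (4.35%), 1 higher and 6 lower. *Scn11a* itself lies on chromosome 9. Within 10 Mb of it, 2 of 155 genes (1.29%) had changed, and the same 2 of 296 (0.676%) within 20 Mb. They were *Gadl1*, an amino acid decarboxylase (5.90, 5.83 and 6.19 in Nav1.9 KO, 6.75, 7.22 and 6.66 in littermates, 1.87-fold lower, adjusted p = 0.0136), and *Stt3b*, a subunit of the enzyme that attaches N-glycans (12.35, 12.36 and 12.27 in Nav1.9 KO, 12.50, 12.66 and 12.57 in littermates, 1.19-fold lower, adjusted p = 0.03). Without 1 array, *Gadl1* lost its call without KO 1 or KO 2 (0.0605 and 0.059) and *Stt3b* without any but littermate 1 (0.0594 to 0.12).

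The stretch on chromosome 3 held some of the largest changes. *Them5*, a mitochondrial thioesterase, read 4.61, 6.56 and 4.78 in Nav1.9 KO and 7.61, 7.44 and 7.14 in littermates, with KO 2 apart from the other KO arrays (4.23-fold lower, adjusted p = 0.0121, 0.054 without littermate 1, log2 fold change -2.70 without KO 2). *H2bc18*, a histone H2B gene, read 6.00, 5.23 and 5.86 in Nav1.9 KO and 4.40, 4.58 and 4.54 in littermates (2.28-fold higher, adjusted p = 0.00146). A neighbouring histone gene, *H2bc21*, went the other way at 6.77, 7.14 and 6.94 in Nav1.9 KO and 7.41, 7.45 and 7.37 in littermates (log2 fold change -0.46, adjusted p = 0.0281, lost without any array but KO 2, 0.07 to 0.114). The same stretch held *Sprr1a*, *Gria2*, *Lrat*, *Fgg* (log2 fold change -0.77, adjusted p = 0.0121, 0.0555 without KO 1) and the germ cell gene *Rbm46* (0.64, adjusted p = 0.0156, lost without KO 1, KO 3 or littermate 3 at 0.0584 to 0.0778). *Them5* had 2 further probe sets, at -1.18 (adjusted p over probe sets 0.00102) and -0.12.

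On chromosome 11 the leading gene was *2610507I01Rik*, an uncharacterized transcript, with 6.95, 6.59 and 6.69 in Nav1.9 KO and 5.34, 5.39 and 5.30 in littermates. It had the smallest p of all genes (2.64-fold higher, adjusted p = 1.35e-07). *Mrpl55*, a protein of the mitochondrial ribosome, read 9.52, 9.56 and 9.62 in Nav1.9 KO and 9.09, 9.16 and 9.07 in littermates (1.37-fold higher, adjusted p = 9.43e-05). *6330403K07Rik* had a log2 fold change of 0.61 (adjusted p = 0.000644), and these 3 genes kept their call without any single array. *Aspa*, the enzyme that breaks down N-acetylaspartate, read 10.04, 9.85 and 9.96 in Nav1.9 KO and 9.44, 9.50 and 9.40 in littermates (1.42-fold higher, adjusted p = 0.0299, lost without KO 1, KO 3, littermate 1 or littermate 3 at 0.0961 to 0.121).

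*Xaf1*, an interferon-induced gene on that stretch, gave opposite answers by probe set. The brighter probe set over all arrays, 1443698_at, read 9.30, 9.46 and 9.21 in Nav1.9 KO and 8.68, 8.55 and 8.26 in littermates (log2 fold change 0.83, adjusted p = 0.00266). The other, 1443621_at, read 9.32, 9.21 and 9.14 in Nav1.9 KO and 10.15, 10.07 and 10.08 in littermates (log2 fold change -0.88, adjusted p over probe sets 0.000106). In the 12 arrays of the other lines the first read 9.38 to 9.89 and the second 4.0 to 4.52. All 6 Nav1.9 arrays therefore lay far above every other array on the second probe set, and no single direction can be given for the gene.

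On chromosome 18, *Zfp236*, a zinc finger protein, read 7.63, 7.74 and 7.78 in Nav1.9 KO and 8.31, 8.25 and 8.24 in littermates (1.47-fold lower, adjusted p = 0.000534). *Aldh7a1*, an aldehyde dehydrogenase of lysine breakdown, read 8.90, 8.92 and 8.89 in Nav1.9 KO and 9.76, 9.39 and 9.35 in littermates (1.52-fold lower, adjusted p = 0.00203). Both kept their call without any single array. *Aldh7a1* had 2 further probe sets, of which 0 moved in that direction. The gene that rose was *Ccdc68*, at 10.34, 10.44 and 10.35 in Nav1.9 KO and 9.78, 9.96 and 9.77 in littermates (1.45-fold higher, adjusted p = 0.0121, lost without KO 2, littermate 1 or littermate 3 at 0.0539 to 0.0664). *Stard6*, *Hsbp1l1*, *Hdhd2* and *Cep120* fell by 0.52, 0.36, 0.25 and 0.18 on the log2 scale, and each lost its call without littermate 1 (adjusted p = 0.0528, 0.0837, 0.0569 and 0.173), the last 3 also without 1 or more other arrays.

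**Figure D4:**
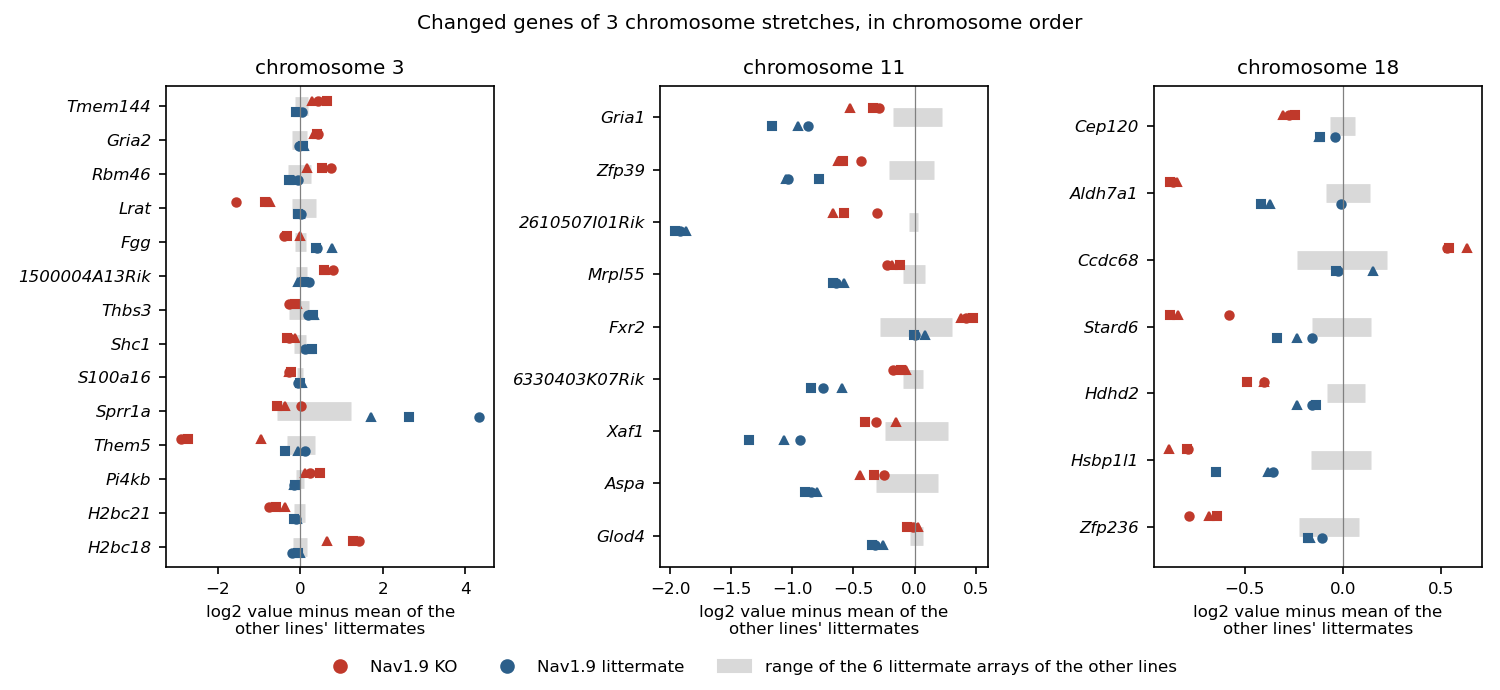
Changed genes of 3 chromosome stretches in chromosome order, each array as its log2 value minus the mean of the 6 littermate arrays of the other lines, with Nav1.9 KO in red above and Nav1.9 littermates in blue below, marker shape for the replicate, and the range of those 6 arrays as a grey band. On chromosome 3 mostly the KO arrays leave the band (*Them5* 4.61 to 6.56 in KO). On chromosome 11 the Nav1.9 littermates lie furthest from the band for most genes, and KO arrays often leave it too. There *2610507I01Rik* reads 5.30 to 5.39 in littermates and 6.59 to 6.95 in KO, with the band at 7.21 to 7.29.

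The 6 littermate arrays of the Nav1.7 and Nav1.8 lines gave a further yardstick. Line, batch and littermate group cannot be told apart here, and the sex markers and the RNA measure of the other lines are those given above. Against those 6 arrays, 5.61% of all genes differed in Nav1.9 KO (2.98% higher) and 9.03% in Nav1.9 littermates (4.62% higher), so both groups stood apart for many genes. Of the 86 changed genes, 40 differed in the KO and 51 in the Nav1.9 littermates. Only the KO stood apart for 28 genes, only the littermates for 39, both for 12 and neither for 7. These counts reuse the Nav1.9 arrays that chose the 86 genes and are a description.

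The injury genes belonged to the littermate side. Of the 11 that fell, 10 stood apart in the Nav1.9 littermates alone and 0 in the KO alone, and *Cacna2d1* in neither. This was read from the brightest probe set, and *Jun* differed by probe set. On its other one, Nav1.9 KO read 8.46 to 8.75 and Nav1.9 littermates 9.05 to 9.31. Both lay above the 6.90 to 8.23 of all arrays of the other lines. The log2 difference of *Sprr1a* to the other lines' littermates was -0.30 in Nav1.9 KO and 2.90 in Nav1.9 littermates. *Atf3* lay at -0.26 in KO and 1.57 in littermates, *Npy* at 0.02 and 1.5, and *Bdnf* at -0.01 and 0.74 in the same order. Of all 26 measured injury genes, 17 were higher in the Nav1.9 littermates than in the other littermates, and 1 was higher in Nav1.9 KO, *Stat3*. The mean level of the list was 7.95 to 8.43 in the other littermates and 8.06 to 8.41 in the KO arrays of the other lines, a range that holds the 8.10 to 8.19 of the Nav1.9 KO arrays and none of the Nav1.9 littermates.

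Other genes belonged to the KO side. *Scn11a* lay at -2.26 to the other littermates in Nav1.9 KO and at -0.41 in Nav1.9 littermates (adjusted p = 0.0231), and of those littermates only replicate 2 reached the 13.19 to 13.36 of the other lines. *Them5* lay at -2.19 in KO and *Lrat* at -1.05 in KO and -0.02 in littermates. Of the 14 changed genes on the chromosome 3 stretch, the KO alone stood apart for 11 and the littermates alone for 3, *Fgg*, *Thbs3* (call lost without KO 1 or littermate 3, adjusted p = 0.0828 and 0.0769) and *Sprr1a*. On the chromosome 11 stretch it was the KO alone for 1 (*Fxr2*, call lost without KO 1, KO 3, littermate 1 or littermate 3 at 0.0584 to 0.0769), the littermates alone for 4 and both for 4. For *2610507I01Rik* the KO lay at -0.52 and the littermates at -1.92, so the gene is higher in KO only against its own littermates. *Gria1* likewise had its littermates at -1.0 and read 7.22 to 7.62 in the other littermates, above all 3 Nav1.9 KO arrays. On the chromosome 18 stretch the KO alone stood apart for 3 and both for 4. *Vgf* was among the genes of both groups, on opposite sides, at -0.40 in KO (adjusted p = 0.0418) and 0.54 in littermates.

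**Figure D5:**
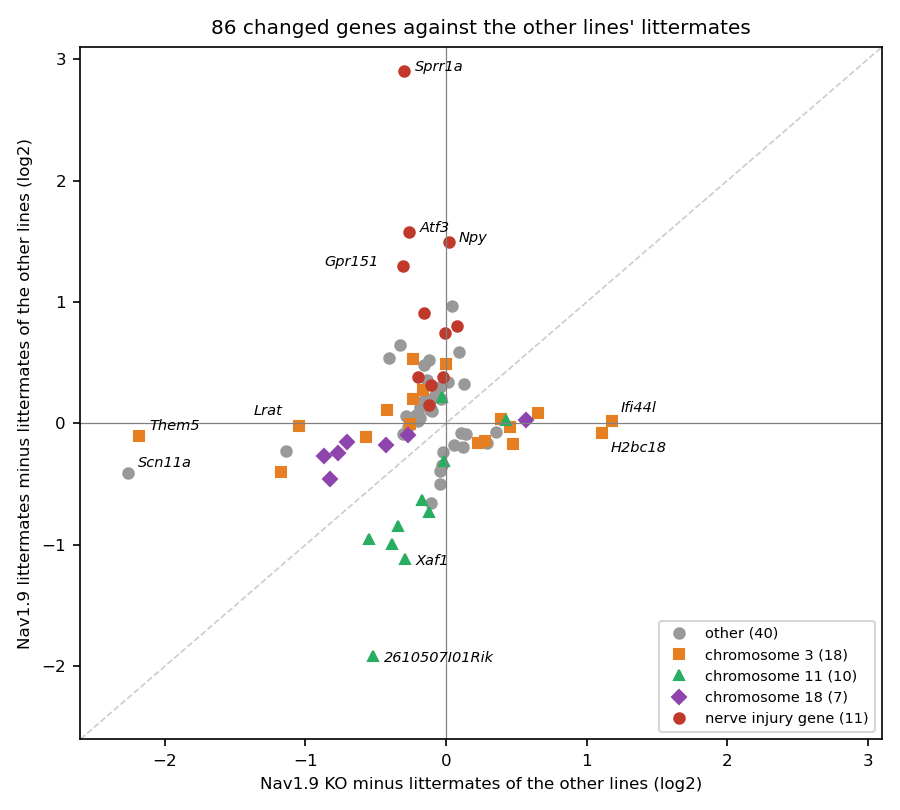
The 86 changed genes, each placed by the difference of Nav1.9 KO (x axis, log2) and of Nav1.9 littermates (y axis, log2) from the littermates of the other lines; red circles are the 11 injury genes, orange squares, green triangles and purple diamonds the genes on chromosomes 3, 11 and 18, and grey circles the other 40. Injury genes run up the y axis (*Sprr1a* at 2.90), many chromosome 3 genes lie along the x axis (*Them5* at -2.19), and most chromosome 11 genes lie low on the y axis (*2610507I01Rik* at -1.92).

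Whether the Nav1.9 change differed from the change in the other lines was tested directly, with each line set against its own littermates. The Nav1.9 effect differed from the mean of the Nav1.7 and Nav1.8 effects for 0.781% of all genes, and for 49 of the 86 (17 with a higher and 32 with a lower value in Nav1.9), while 37 did not pass. The 86 were chosen by the Nav1.9 effect, which enters these differences too, so their counts are raised by that choice and are a description beside the shares of all genes. Against Nav1.7 alone it was 2.82% of all genes and 58 of the 86. Against Nav1.8 alone it was 0.0385% of all genes and 4 of the 86, *Scn11a*, *2610507I01Rik*, *Mrpl55* and *Zfp236*. For the 11 injury genes that fell, the count differed by line, with 10 passing against the Nav1.7 effect, 6 against the mean of both and 0 against the Nav1.8 effect (limma, 9 at an unadjusted p under 0.05), chosen in the same way. All 11 had a log2 fold change below 0 in Nav1.8 KO, where none passed, and 1 of 11 in Nav1.7 KO. *Atf3* had a log2 fold change of -1.83 in Nav1.9 KO, 0.58 in Nav1.7 KO and -0.70 in Nav1.8 KO, and *Sprr1a* of -3.20, 0.42 and -1.03 in that order of lines. *Jun* had -0.43 in Nav1.9 KO against 0.41 in Nav1.7 KO (adjusted p = 0.00256) and -0.13 in Nav1.8 KO.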

How the data were processed

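Total RNA of whole DRG from all spinal levels was hybridised to Affymetrix arrays, 3 arrays per group. The authors made the deposited log2 values in Affymetrix Expression Console. That they are log2 was inferred from their range. How probes were summarised and arrays normalized is not given in the sources used here, and without detection calls it is unknown how far a dim probe set stands above background. Depth does not apply to arrays, whose number limits the precision. Titles and genotype labels gave the groups. The source names were disregarded, since they read littermate control for all 18 samples.

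Control probe sets (64) were removed. In the platform annotation 34945 of the others carried 1 gene symbol, 932 several, and 9160 had no entry. A gene took the values of its brightest probe set, which left 18193 genes (9183 with a single probe set), and dim genes were kept. limma 3.58.1 in R 4.3.3 (lmFit, eBayes) was fitted to all 18 arrays with 6 group means, 12 residual and 3.44 prior degrees of freedom. P-values are two-sided and adjusted by Benjamini-Hochberg over all genes, with a threshold of 0.05. Changed, rose and fell refer to this test. An exact permutation test was not used, as 0.1 is its smallest two-sided p with 3 against 3 arrays. Levels of different probe sets cannot be compared with each other. The model was tested on simulated data.

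The comparison, its gene lists and the promoter motifs were chosen with earlier results of these data known. Genes named are the 3 sodium channel genes, those the study names, the 20 largest increases and 20 largest decreases that passed without overlap, and in each list the members that passed and up to 4 with the smallest p. Others are said to be named after their values were seen. Alternatives covered the samples that share the spread, normalization, dim genes, the choice of probe set, the prior, array weights, a replicate block, the test, the threshold and each array.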

Additional observations from a re-analysis of the deposited data

Results flagged for a closer look

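For 32 changed genes, named by rule or placed on the 3 stretches, the Nav1.9 change differed from the mean change in the Nav1.7 and Nav1.8 lines. This was limma's test of that difference at an adjusted p under 0.05 over all genes. Most of these genes were named for their Nav1.9 effect, which is part of the difference. Each line was set against its own littermates. *Xist* lay above *Eif2s3y* in 2 of 3 Nav1.7 KO arrays and 3 of 3 of their littermates, in 2 of 3 Nav1.8 KO arrays and 0 of 3 of their littermates, and in 0 of 3 arrays of each Nav1.9 group, and the part of sex was not tested. The values here are log2 differences, the Nav1.9 effect minus the mean of the other effects. Of the 32, 19 were lower in Nav1.9 and 13 higher, and 23 had the opposite sign in Nav1.7 KO. Genes named further below after their values were seen were not counted here. Among them *Ccng1*, *Enc1*, *Tns1* and *Atp2b3* passed the same test (adjusted p = 0.00418, 0.0404, 0.00856 and 0.0115). *Tns1* also passed in the opposite direction in Nav1.7 KO (log2 fold change -0.36, adjusted p = 0.00061 in limma).

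Among injury genes the difference was -2.89 for *Sprr1a*, -1.77 for *Atf3*, -0.91 for *Bdnf*, -0.72 for *Socs3*, -0.65 for *Flrt3* and -0.56 for *Jun*. *Flrt3*, *Bdnf* and *Jun* passed in the opposite direction in Nav1.7 KO, with log2 fold changes of 0.38, 0.57 and 0.41, as did *Npy1r* (0.83) and *St6galnac3* (-0.36). In Nav1.8 KO, 0 of the 32 passed. Other genes of neurons and signalling were *Scn11a* (-1.72), *Npy1r* (-0.91), *Vgf* (-0.85), *Pkib* (-0.61), *Sfrp1* (0.59), *Nrarp*, a Notch regulator (0.51), and *Macroh2a1*, a histone variant (0.28). *Nrarp* lost its Nav1.9 call without KO 1, KO 2, littermate 1 or littermate 3 (adjusted p up to 0.0875).

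On chromosome 3 the difference was -1.94 for *Them5*, -0.90 for *Fgg*, -0.48 for *Thbs3*, -0.46 for *Shc1* and -0.29 for *S100a16*, and 1.18 for *H2bc18*, 0.68 for *Rbm46*, 0.67 for *1500004A13Rik*, 0.53 for *St6galnac3* and 0.42 for *Pi4kb*. The Nav1.9 call was lost for *Shc1* without KO 1, KO 3 or littermate 3 (adjusted p up to 0.0776), for *S100a16* without KO 1, KO 2, littermate 2 or littermate 3 (up to 0.0833), for *Pi4kb* without littermate 1 or littermate 3 (up to 0.0645) and for *St6galnac3* without KO 2 or littermate 3 (up to 0.0769). On chromosome 11 it was 1.34 for *2610507I01Rik*, 0.76 for *Xaf1* on its brightest probe set, 0.50 for *6330403K07Rik* and 0.42 for *Mrpl55*. The other probe set of *Xaf1* fell in Nav1.9 KO, as given above. On chromosome 18 it was -0.57 for *Aldh7a1*, -0.57 for *Stard6*, -0.57 for *Zfp236*, -0.24 for *Hdhd2* and 0.58 for *Ccdc68*.

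Probe sets without a single gene symbol were outside the comparison of genes. Of 10092 such probe sets, 16 (0.159%) passed when all probe sets were tested together, 8 higher and 8 lower in Nav1.9 KO, and 14 of the 16 have no symbol in the annotation used. They include 1453752_at, annotated with 4 symbols (log2 fold change -1.45), 1456471_x_at (-2.73) and 1445014_at (0.84).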

How the results depend on the processing

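The counts of 86 changed genes (29 higher, 57 lower), 11 injury genes lower and 39 changed genes on chromosomes 3, 11 and 18 depended on how the spread was estimated. With the 6 Nav1.9 arrays alone they were 8 (1 higher, 7 lower), 1 and 4, with 5 of the 86 genes among the 8. That 1 injury gene was not among the 11. Their adjusted p in limma with these arrays alone ran from 0.0598 (*Jun*) to 0.269 (*Gpr151* and *Cacna2d1*). An analysis of variance on the 6 arrays gave 0 for each count after adjustment, and for *Scn11a* an adjusted p of 0.298 at an unchanged -1.85. At an unadjusted p under 0.01 it gave 460 (200 higher, 260 lower), 3 and 114, and with a fold over 1.5 as well 14 (5 higher, 9 lower), 2 and 9. limma at an unadjusted p under 0.01 and a fold over 1.5 gave 40 (13 higher, 27 lower) and 20 on the 3 chromosomes. Counts grew to 166 (60 higher, 106 lower) without dim genes, 173 (63 higher, 110 lower) with a trend and robust prior and 154 (56 higher, 98 lower) with array weights, and 71, 84 and 86 of the 86 genes were among them. With the mean of all probe sets 19 genes were higher. Median centring, quantile normalization, the Nav1.8 and Nav1.9 lines only, each probe set tested for itself and cross-hybridizing probe sets left out gave 86, 95, 68, 93 and 71 changed genes.

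Correlations of deviations between KO and littermate arrays were 0.0345, 0.0624 and -0.19 for equal replicate numbers. For unequal numbers they ran from -0.26 to 0.24. Equal numbers thus did not stand out, but with 3 arrays per group this cannot settle whether samples were paired. With a replicate block there were 38 changed genes (15 higher, 23 lower), of which 36 were among the 86, with 6 injury genes lower and 21 on the 3 chromosomes. Leaving out 1 array at a time gave 39 to 122 changed genes, 12 to 41 higher and 24 to 81 lower, with 5 to 15 injury genes lower and 18 to 42 on the 3 chromosomes, and 36, 37, 46, 34, 69 and 34 of the 86 genes were kept without KO 1, 2, 3 and littermate 1, 2, 3. The fewest, 39, were found without littermate 3 and the most, 122, without littermate 2.

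The direction turned with the mean of all probe sets for *Mbp* (0.0367), *Ptger1* (-0.36), *Scn9a* (0.0119), *Ntrk3* (-0.0192) and *Xaf1* (-0.025), and without cross-hybridizing probe sets for *Cd8a* (-0.0103), *Rps3* (-0.0049), *Tns1* (-0.027) and *Fuca2* (0.0127). *Scn10a* ranged over -0.0498 to 0.0504 when 1 array was left out, and lay at -0.0498 without KO 3, -0.0016 without littermate 1 and -0.0083 without littermate 2. Over 178 genes, 2494 of 3151 values kept direction and side of the threshold, 597 lost a call and 48 gained one. The cause of these changes was not tested. No detection calls were used, so signal over background limits dim genes to an unknown extent.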

Other observations

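Some changed genes stood in none of the lists. *Met*, the receptor of hepatocyte growth factor, read 6.48, 6.58 and 6.53 in Nav1.9 KO and 7.13, 6.97 and 6.99 in littermates (1.42-fold lower, adjusted p = 0.0142 from limma, up to 0.0688 without KO 1 or littermate 1). Another probe set of *Met* was at a log2 fold change of -0.01. *Ccng1*, a cyclin that p53 induces, read 11.28, 11.33 and 11.30 in Nav1.9 KO and 11.51, 11.57 and 11.57 in littermates (1.18-fold lower, adjusted p = 0.00939). *Enc1*, an actin-binding protein of neurons, read 8.41, 8.34 and 8.34 in Nav1.9 KO and 8.76, 8.65 and 8.69 in littermates (1.27-fold lower, adjusted p = 0.00939). Both kept their call without any single array. *Plin2*, which coats lipid droplets, was 1.25-fold lower (10.25, 10.16 and 10.24 in Nav1.9 KO, 10.62, 10.43 and 10.57 in littermates, adjusted p = 0.0121, up to 0.062 without KO 2, littermate 1 or littermate 3). *Atp2b3*, a calcium pump of the plasma membrane in neurons, was 1.24-fold higher (10.87, 10.95 and 10.86 in Nav1.9 KO, 10.60, 10.63 and 10.51 in littermates, adjusted p = 0.0121, up to 0.0663 without KO 2 or littermate 3). These 5 genes, and the focal adhesion gene *Tns1* (1.27-fold higher, adjusted p = 0.00939, log2 fold change -0.027 without cross-hybridizing probe sets), were named after their values were seen.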
